A study of Mus musculus with 2 samples.

Results

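The miR-34 and miR-449 family was described in the adrenal gland through its 6 mouse genes, Mir34a, Mir34b, Mir34c, Mir449a, Mir449b and Mir449c. They were found by matching the Ensembl identifiers of the deposited tables to these symbols in GENCODE M21, which gave 6 of the 2202 microRNA genes. The tables came from microRNA-seq of total RNA from adrenal gland tissue of wild-type C57BL/6J mice obtained from The Jackson Laboratory. The study holds 1 group of 2 libraries, labelled biological replicates 1 and 2, with no treatment, mutant or time course. Each library has its own tissue sample but both carry the same donor identifier, and the labels do not state whether separate animals or pooled glands were used, so differences between the libraries may be technical. One label calls the mice female while another says that sex was not collected, and age is given as unknown.

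The family is grouped by a shared seed, the stretch near the 5′ end of a microRNA that pairs with target messages. Transcription of Mir34a, Mir34b and Mir34c is activated by the tumour suppressor p53, and their products repress genes of cell-cycle entry and survival. Mir34b, Mir34c and the Mir449 genes are best known from testis and from multiciliated epithelia. In multiciliated epithelia they act redundantly in the formation of motile cilia.

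The mature products show what the members have in common. Of the 6 genes, 5 had a hairpin and at least 1 mature sequence in the RefSeq table (build GRCm38.p6), with 9 mature sequences in all, and the hairpin coordinates of these 5 equalled those of GENCODE. Mir449b and miR-34c-5p had no entry. The 5′ arms, which carry the seed of the family, read as follows, 5′ to 3′, with seed bases 2 to 8 in capitals.
miR-34a-5p: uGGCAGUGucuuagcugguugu
miR-34b-5p: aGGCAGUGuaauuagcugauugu
miR-449a-5p: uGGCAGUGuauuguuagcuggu
miR-449c-5p: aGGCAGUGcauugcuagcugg
All 4 had the seed GGCAGUG, and no other mature microRNA among the 1738 in the table had it. Over their whole length, seed included, they had 19 identical bases in 23 aligned columns (82.6%) between miR-34a-5p and miR-34b-5p, 18 in 22 (81.8%) between miR-449a-5p and miR-449c-5p, and 15 in 22 (68.2%) between miR-34a-5p and miR-449c-5p.

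The 3′ arms did not form a single seed group, and they are shown because the counts do not tell the arms apart. Seed bases 2 to 8 are again in capitals.
miR-34a-3p: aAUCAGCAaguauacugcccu
miR-34b-3p: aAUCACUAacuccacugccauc
miR-34c-3p: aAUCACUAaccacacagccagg
miR-449a-3p: cAGCUAACaugcgacugcucuc
miR-449c-3p: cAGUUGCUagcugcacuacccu
Only miR-34b-3p and miR-34c-3p shared a seed, AUCACUA, and they were identical at 17 of 22 aligned columns. None of the 9 mature sequences was identical to one from another gene of the table, while miR-34c-5p and Mir449b, without an entry, were not checked. This matters because reads with several alignments stand apart from the gene counts, so genes with identical copies can be under-counted.

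The genes lie at 3 loci (mm10). Mir34a is on chromosome 4 at 150068454-150068555 on the plus strand, and its last 17 bases overlap an exon of Gm37795, an unclassified transcript on the same strand. Mir34b and Mir34c are on the minus strand of chromosome 9, at 51103562-51103645 and 51103034-51103110, with 451 bases between them. Both lie opposite an intron of Btg4, a gene of the BTG antiproliferative family that is transcribed from the plus strand. Mir449c (113035983-113036091), Mir449b (113037419-113037498) and Mir449a (113037534-113037624) span 1642 bases on the plus strand of chromosome 13. These 3 genes sit in an intron of Cdc20b, on its strand. Cdc20b is a relative of the mitotic regulator Cdc20 and is known from multiciliated cells.

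**Figure D1:**
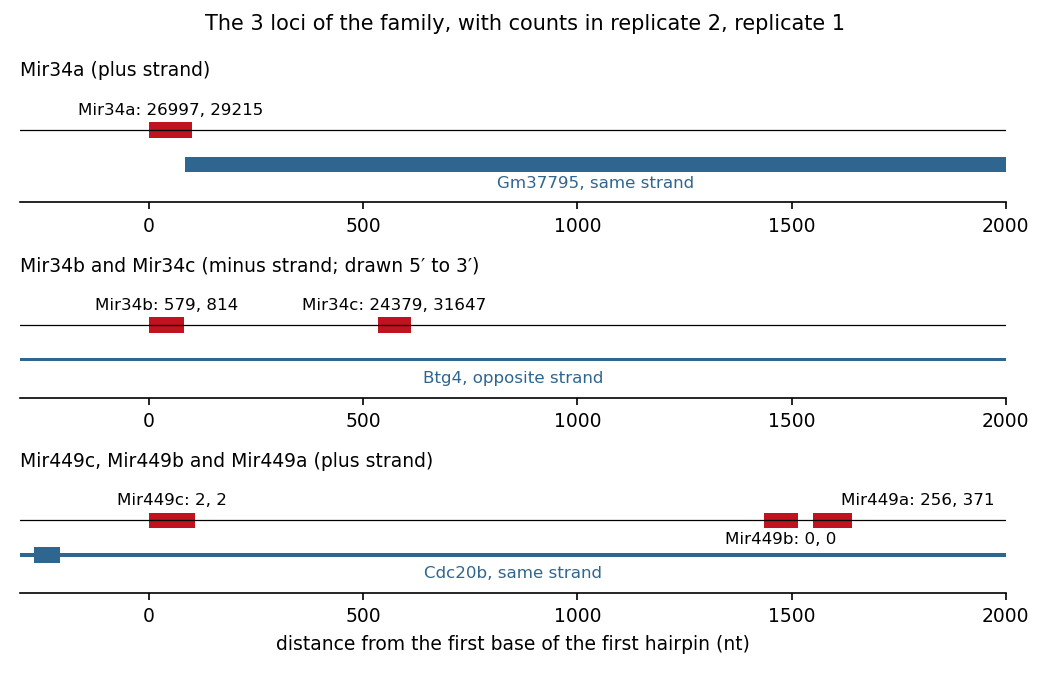
Map of the 3 loci, drawn to scale along the strand of the microRNA genes, with the distance from the first base of the first hairpin in nt on the horizontal axis. Red boxes are hairpin genes with their counts in replicate 2 and then replicate 1, thick blue boxes are exons and thin blue lines introns of the overlapping gene. Mir34b and Mir34c, 451 bases apart, had 579 and 24379 counts in replicate 2.

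The libraries held 14457994 reads in replicate 2 and 18743064 in replicate 1, of which 6570375 (45.4%) and 9137907 (48.8%) fell in microRNA genes in the sense direction. Levels are given as CPM, the counts of a gene scaled to 1000000 of these gene counts. A read covers a whole mature product, so levels were compared between genes as reads per gene and were not divided by hairpin length. No microRNA defines the gland on its own. Mir375 and Mir7b, known from neuroendocrine cells such as those of the medulla, had 49445 ± 1171 CPM and 3109 ± 390 CPM (SD, n = 2). In whole tissue, fewer cells of a type and less RNA per cell cannot be told apart.

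The family was carried by Mir34a and Mir34c in almost equal amounts. Mir34a, the member transcribed alone and broadly expressed in adult tissues, had 26997 counts or 4109 CPM in replicate 2 and 29215 counts or 3197 CPM in replicate 1, a mean of 3653 ± 645 CPM (SD, n = 2). Mir34c, the downstream gene of the chromosome 9 pair, had 24379 counts or 3710 CPM in replicate 2 and 31647 counts or 3463 CPM in replicate 1, a mean of 3587 ± 175 CPM. The means of Mir34a and Mir34c, at ranks 39 and 40 of all genes, differed by less than the spread between the libraries.

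Mir34b, the upstream gene of the same pair, was far lower. It had 579 counts or 88.1 CPM in replicate 2 (exact 95% counting interval 81.1 to 95.6) and 814 counts or 89.1 CPM in replicate 1 (83.1 to 95.4), and it ranked 188. The 2 libraries overlapped within counting error. The level of Mir34b stood below those of Mir34a and Mir34c by far more than the spread between the libraries.

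Of the Mir449 genes, Mir449a was readily counted. It had 256 counts or 39.0 CPM in replicate 2 (interval 34.3 to 44.0) and 371 counts or 40.6 CPM in replicate 1 (36.6 to 44.9), at rank 224. These intervals overlapped each other and lay below those of Mir34b in both libraries. Mir449c had 2 counts in each library, or 0.304 CPM in replicate 2 and 0.219 CPM in replicate 1, which is under the 3 counts that a count of 0 allows. Mir449b had 0 counts in both, which allows up to 0.457 CPM in replicate 2 and 0.328 CPM in replicate 1. The levels of Mir449b and Mir449c could not be told apart at this depth, and all these limits cover counting error only.

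**Figure D2:**
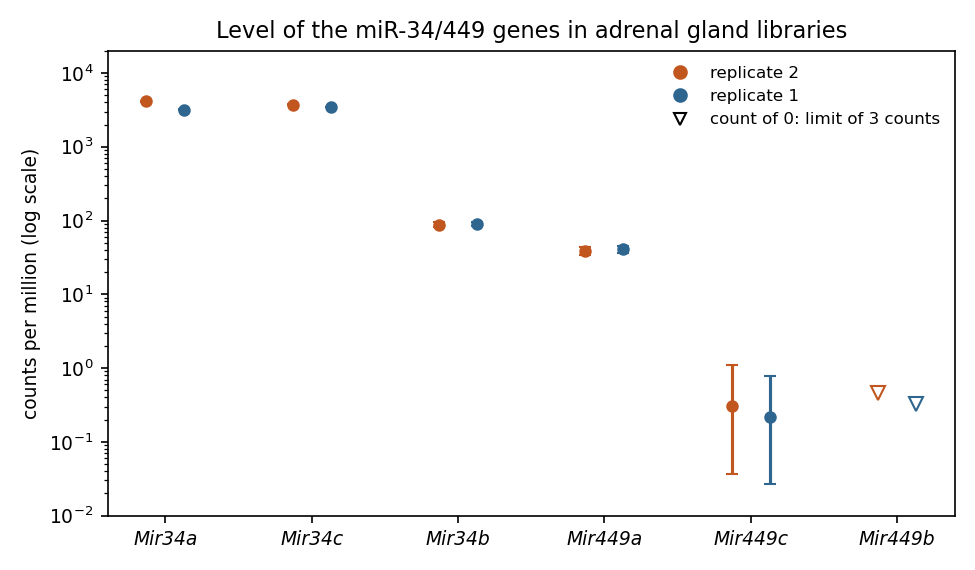
Level of each gene in CPM on a log scale, with replicate 2 left of replicate 1. Bars are exact 95% counting intervals and open triangles mark the limit of 3 counts for a count of 0. Mir34a and Mir34c lie between 3197 and 4109 CPM, Mir34b near 89 CPM, Mir449a near 40 CPM, and Mir449c below 1 CPM.

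Summed over the 6 genes, the family made up 0.795% of counts in replicate 2 and 0.679% in replicate 1, or 0.737% ± 0.0818 (SD, n = 2). The 3 Mir34 genes supplied 99.5% of it in replicate 2 and 99.4% in replicate 1. Mir34a accounted for 51.7% of the family in replicate 2 and 47.1% in replicate 1, while Mir34c accounted for 46.7% in replicate 2 and 51.0% in replicate 1. The order of the leading pair thus switched between the libraries. Mir34a exceeded Mir34c 1.11-fold in replicate 2 (counting interval 1.09 to 1.13) and was 0.923 times Mir34c in replicate 1 (0.909 to 0.938). This ratio is taken inside a library and does not depend on how the libraries are scaled. Both intervals leave out an equal level, in opposite directions, so the mean order of the pair rests on which library is read. Taken by locus, the chromosome 9 pair summed to 3799 CPM in replicate 2 and 3552 CPM in replicate 1, close to Mir34a alone, and the 3 Mir449 genes summed to 39.3 CPM in replicate 2 and 40.8 CPM in replicate 1.

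The genes next to each member in the order of levels were picked for closeness, so their gaps are small by that choice. They serve only to place each member. Mir34a had Mir130a directly above at 3653 ± 765 CPM, and Mir34c had Mir541 directly below at 3410 ± 213 CPM. Mir34b lay between Mir186 at 90.3 ± 23.3 CPM and Mir148b at 83.2 ± 21.8 CPM. Mir449a lay between Mir3099 at 40.1 ± 7.02 CPM and Mir495 at 38.9 ± 19.1 CPM. In each of these cases the gap was within the larger SD of the genes compared. For Mir34b, with an SD of 0.68 CPM, the larger SD was that of the neighbour.

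Likeness was measured as the distance in log2(CPM + 1) over the 2 libraries, which describes level more than pattern. The gene nearest to Mir34a was Mir382 at a distance of 0.13, followed by Mir34c at 0.19 and Mir541 at 0.21. Mir34c had the same genes around it, Mir541 at 0.11, Mir382 at 0.16 and Mir34a at 0.19. Mir541 and Mir382 lie on chromosome 12, at 109742409-109742498 and 109733771-109733846. Mir34b was nearest to Mir92-2 (0.26), mmu-mir-3535 (0.27) and Mir350 (0.28), and Mir449a to Mir3547 (0.092), Mir212 (0.26) and Mir331 (0.27).

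The libraries were then compared, which asks how evenly the family is measured in 2 preparations of the same tissue. Ratios are replicate 2 over replicate 1 after TMM scaling, which lowered every log2 ratio by 0.10 against scaling by total counts. Genes whose counts summed to 20 or more were each given an exact binomial test, two-sided, and the p-values of all 426 genes tested were adjusted after Benjamini and Hochberg with a threshold of 0.05. The test compares these libraries and knows counting error only. Of the 426 genes, 239 (56.1%) were called, 110 (25.8%) higher in replicate 2 and 129 (30.3%) higher in replicate 1. By total counts the calls split into 150 higher in replicate 2 and 93 higher in replicate 1.

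Of the 6 members 4 reached 20 counts, and 1 of these 4 was called, beside 56.1% of all genes tested. Mir34a was higher in replicate 2, with a log2 ratio of 0.26 (95% counting interval 0.24 to 0.28), a 1.20-fold difference (adjusted p = 3.88e-99 in the exact binomial test). Its size was near the middle of the range for genes of similar abundance. Of the 75 genes at 1000 CPM or more, 34 had a larger absolute log2 ratio, and their median was 0.24. Over all tested genes, edgeR's common dispersion corresponded to a biological coefficient of variation of 0.299.

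Mir34c was nearly level between the libraries, with a log2 ratio of -0.0034 (interval -0.028 to 0.021, adjusted p = 0.877 in the exact binomial test). Among the 75 genes at 1000 CPM or more, 72 had a larger absolute ratio. This depends on the scaling. By total counts the ratio was 0.099 and passed the test (adjusted p = 2.37e-15 in the exact binomial test), and with DESeq2 size factors it was 0.010 and did not.

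The low members did not pass the test. Mir34b had a log2 ratio of -0.12 (interval -0.27 to 0.037, adjusted p = 0.207 in the exact binomial test). Mir449a had -0.16 (interval -0.40 to 0.071, adjusted p = 0.245 in the exact binomial test). Between 10 and 1000 CPM, 171 of 214 genes had a larger absolute ratio than Mir34b and 148 of 214 a larger one than Mir449a, beside a median of 0.27. Counting error is wider at these levels, and the intervals leave room for differences of either sign. Mir449b and Mir449c were too low to test.

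**Figure D3:**
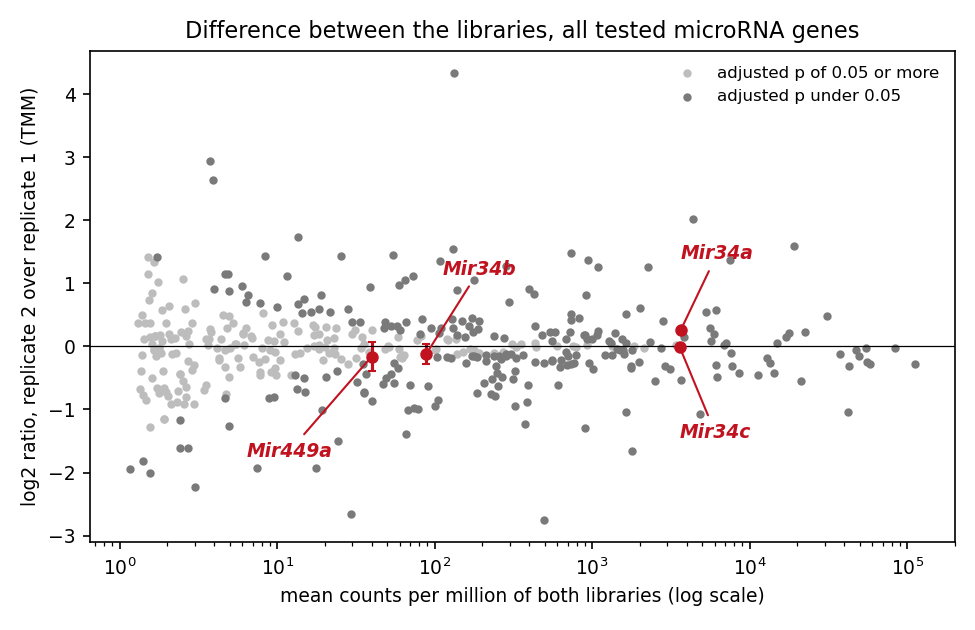
Log2 ratio of replicate 2 over replicate 1 after TMM scaling against the mean level in CPM on a log scale, for the 426 tested genes. Dark grey points passed an adjusted p of 0.05, light grey points did not, and red points with 95% counting intervals are the 4 members tested. Mir34a stands at 0.26, and Mir34c, Mir34b and Mir449a at -0.0034, -0.12 and -0.16.

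The pair on chromosome 9 was measured very unequally although its hairpins are neighbours. The hairpins are shown because a count is made over a whole hairpin gene. The GGCAGUG stretch is in capitals, from RefSeq (GRCm38.p6, minus strand, 5′ to 3′).
Mir34b: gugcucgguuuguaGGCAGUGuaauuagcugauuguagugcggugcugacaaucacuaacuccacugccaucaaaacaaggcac
Mir34c: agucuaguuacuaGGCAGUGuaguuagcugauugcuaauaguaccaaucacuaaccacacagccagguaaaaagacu
The sequences were identical at 60 of 86 aligned columns (69.8%), the highest identity among the 5 hairpins compared. GGCAGUG was searched on the RNA strand and stood once in each of the 5 hairpins, and in 17 of all 1005 hairpins of the table (1.69%). The predicted folding energy was -33.1 kcal/mol for Mir34b and -29.8 kcal/mol for Mir34c. That is -0.39 per base for each, beside a median of -0.41 over the table.

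Mir34c counts exceeded Mir34b counts 42.1-fold in replicate 2 (counting interval 38.8 to 45.8) and 38.9-fold in replicate 1 (36.3 to 41.7). The intervals overlapped. On the log2 scale the ratio was 5.40 in replicate 2 and 5.28 in replicate 1, a mean of 5.34 ± 0.081 (SD, n = 2).

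This imbalance was set beside 97 pairs of adjacent microRNA genes on the same strand within 10 kb, the chromosome 9 pair included, in which both genes were tested. The median pair differed by 2.87 on the log2 scale, or 7.31-fold, and the middle of the distribution ran from 1.17 to 4.40. Mir34c over Mir34b ranked 16, above the upper quartile. Partners with identical copies elsewhere can be under-counted. In a restriction chosen after seeing the data, pairs with a gene listed in RefSeq as sharing a mature sequence with another were left out. For Mir34c only the 3′ arm was listed, so its 5′ arm was not checked. In the hairpins printed above, the stretch of Mir34c that matches the listed miR-34b-5p is nearly the same in sequence. The effect of this likeness on the counts of the pair was not tested. Over the 73 pairs that remained, of which 70 had both genes in the table, the pair ranked 9 and the median was 2.51. The chromosome 9 ratio also moved little between the libraries, by 0.11 on the log2 scale against a median of 0.44, with 17 of the 97 pairs moving less.

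**Figure D4:**
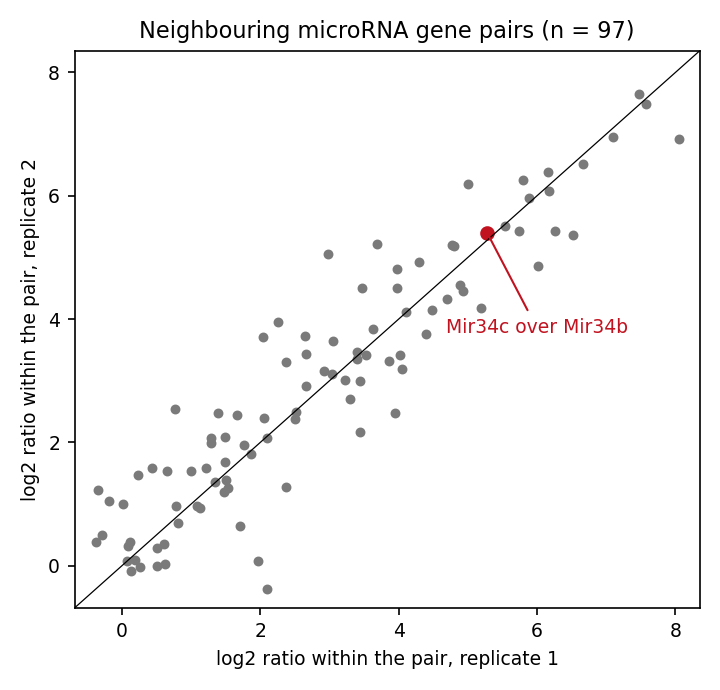
Log2 ratio within each of 97 neighbouring microRNA gene pairs in replicate 2 (vertical) against replicate 1 (horizontal), each pair turned so that its mean ratio is positive, with the line of equality. The red point is Mir34c over Mir34b, at 5.39 in replicate 2 and 5.28 in replicate 1 with 0.5 counts added, close to the line and in the upper part of the cloud.

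The chromosome 13 genes were unequal as well. Mir449a exceeded Mir449c 128-fold in replicate 2 (counting interval 35.1 to 1063) and 186-fold in replicate 1 (51.0 to 1537), and the wide intervals reflect the 2 counts of Mir449c. Against the limit of 3 counts in each library, Mir449a was at least 85.3-fold higher than Mir449b in replicate 2 and at least 124-fold higher in replicate 1, with no allowance for counting error in Mir449a. The exact 95% interval of the ratio, which allows for counting error in both genes, started at 68.9-fold in replicate 2 and 100.1-fold in replicate 1. The hairpins are 35 bases apart. Mir449b was not checked for identical copies, so the folds over it hold only for the reads counted. Mir34b exceeded Mir449a 2.26-fold in replicate 2 (1.95 to 2.63) and 2.19-fold in replicate 1 (1.94 to 2.49).

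Counts in the antisense direction were found at 1 member. Mir34b had 16 antisense counts beside 579 sense counts in replicate 2, which is 2.69% of its stranded counts (exact 95% interval 1.54 to 4.33), and 17 beside 814 in replicate 1, or 2.05% (1.20 to 3.26). The intervals overlapped. The far more abundant Mir34a had 0 antisense counts, with upper bounds of 0.0137% in replicate 2 and 0.0126% in replicate 1. Mir34c, its neighbour opposite the same Btg4 intron, also had 0, with upper bounds of 0.0151% in replicate 2 and 0.0117% in replicate 1. Mir449a, with fewer sense counts, had 0 as well, which allows up to 1.43% in replicate 2 and 0.989% in replicate 1.

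No annotated microRNA gene lies opposite Mir34b, only the Btg4 intron. Of 2138 genes with no microRNA gene on the other strand, 84 had any antisense count, and Mir34b ranked 3 by their number over both libraries, behind Mir708 and Mir203. It held 9.58% of the 167 antisense counts of these genes in replicate 2 and 7.87% of 216 in replicate 1. Among the 216 such genes with at least 500 sense counts over both libraries, 189 had no antisense count. Mir34b ranked 2 among them by antisense share, at 2.31% over both libraries. Mir34b was chosen with its antisense counts known, so these ranks are description only.

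Other microRNAs linked to p53, from a list chosen with earlier results of these data known and partly from work in human cells, were set beside the family. Of the 12 genes 10 reached a count of 10 in each library, and the sum was 54219 CPM in replicate 2 and 46031 CPM in replicate 1. Its leading genes were Mir22 at 31062 ± 8741 CPM, Mir143 at 14230 ± 2163 CPM and Mir15a at 1798 ± 1255 CPM, which hold back growth in several cell types. Mir34a and Mir34c lay between Mir143 and Mir15a in level. Of the 10 tested, 3 were higher in replicate 2, 4 were higher in replicate 1 and 3 did not pass, beside 25.8% higher in replicate 2 and 30.3% higher in replicate 1 over all 426 genes. The median log2 ratio of the list was -0.098, beside -0.025 over all 426. By total counts the calls were 3 higher in replicate 2 and 3 higher in replicate 1. Mir22 was among those higher in replicate 2 at 0.48, and Mir15a among those higher in replicate 1 at -1.66. Mir15a and Mir16-1 come from the same locus but went opposite ways, with Mir16-1 at 0.81. Mir16-1 and the Mir194 genes have near-identical copies, so their counts are uncertain.

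Tissues in which Mir34b, Mir34c and Mir449 are known to be abundant were represented by 2 further lists. The lists overlap, since Mir200c and Mir141 are both p53-linked and epithelial, and Mir192, Mir194-1, Mir194-2 and Mir215 are both p53-linked and in the kidney and liver list, so a call such as that of Mir192 is counted in 2 lists. The 7 epithelial microRNAs, which epithelia with multiciliated cells also express, summed to 741 CPM in replicate 2 and 728 CPM in replicate 1, and 5 had at least 10 counts in both. Mir203, a microRNA of keratinocytes and other epithelia, made up most of this with 683 ± 7.13 CPM. Mir200c and Mir200b, which maintain the epithelial state, had 20.2 ± 0.970 and 16.3 ± 5.12 CPM. Beside these, the Mir449 genes summed to 39.3 CPM in replicate 2 and 40.8 CPM in replicate 1. Of 6 tested epithelial genes 3 did not pass, 1 was higher in replicate 2 and 2 in replicate 1, beside 56.1% called over all genes tested, at a median log2 ratio of -0.043.

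Of the 12 listed X-linked microRNAs of testis, Mir547 alone reached a count of 10 and 7 were at 0 in both libraries. The list summed to 14.5 CPM in replicate 2 and 35.7 CPM in replicate 1. Mir547 supplied nearly all of it with 88 counts in replicate 2 and 324 in replicate 1, followed by Mir741 with 4 counts in replicate 2 and 0 in replicate 1, and Mir743 with 2 in replicate 2 and 1 in replicate 1. Mir547 was the 1 gene of the list tested and was higher in replicate 1, at a log2 ratio of -1.50. These values depend on the choice of list. Mir201, 212 bases from Mir547 on the same strand, was not in it. Mir201 had 84 counts in replicate 2 and 83 in replicate 1. Its log2 ratio was 0.39 and did not pass (adjusted p = 0.134 in the exact binomial test). The neuroendocrine list (Mir375, Mir7b, Mir7-1 and Mir7-2) summed to 51805 CPM in replicate 2 and 54062 CPM in replicate 1. Mir7-1, next after Mir7b, had 273 ± 2.62 CPM. Identical copies, which can lower counts, were not checked for in this list. Of these 4 genes 3 were called, all with the higher level in replicate 1, beside 56.1% called and 30.3% higher in replicate 1 over all genes tested, at a median of -0.26. The 6 kidney and liver microRNAs, which mark tissue next to the gland, summed to 190 CPM in replicate 2 and 241 CPM in replicate 1. Mir122, Mir204 and Mir192 led them with 99.8 ± 40.0, 47.9 ± 9.17 and 35.0 ± 3.17 CPM. Of 4 tested, 1 was higher in replicate 2 and 2 in replicate 1, beside the same 56.1% called over all genes, at a median of -0.24. The part of these cells and tissues in the levels of the family was not tested.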

How the data were processed

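Total RNA from adrenal gland was sequenced as microRNA libraries, with a size range below 30 per the labels. The authors deposited raw read counts per microRNA gene on mm10 with GENCODE M21, per the description beside the tables; adapters were trimmed, per the labels' protocols. No source used here names the aligner or counter. Each table has 3 columns of counts with no header, taken from their values as either strand, sense and antisense. The 4 rows that name no gene (54.6% of reads in replicate 2, 51.2% in replicate 1) were left out.

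CPM and all ratios were computed here. Binomial tests and exact (Clopper-Pearson) 95% intervals came from scipy 1.17.1, TMM factors and the common dispersion from edgeR 4.0.16, size factors from DESeq2 1.42.0, and folding energies from RNAfold 2.7.2. Log2 ratios between libraries had 0.5 counts added. The binomial script was tested on data simulated with counting error only. That simulation held no further spread between libraries, so it cannot show how the test behaves under such spread. Sequences are from RefSeq, GRCm38.p6. Genes named were the members, their neighbours in level and likeness, overlapping genes and the leading 3 of each list; others were named after their values were seen. Members and lists were chosen with earlier results of these data known. Scaling, filter, added count, strand column, denominator and each library were varied.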

Additional observations from a re-analysis of the deposited data

Results flagged for a closer look

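The antisense column, which the comparisons of levels do not use, lists 16 counts at Mir34b in replicate 2 and 17 in replicate 1. Mir34b was chosen for this description with these counts known, so no test is attached to them. The deposited tables do not show which reads these were.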

How the results depend on the processing

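With all reads of a library as the denominator, the mean levels were 1713 CPM for Mir34a, 1687 CPM for Mir34c, 41.7 CPM for Mir34b, 18.8 CPM for Mir449a and 0.123 CPM for Mir449c, and the family share was 0.346%. With counts on either strand they were 4018 CPM for Mir34a, 3947 CPM for Mir34c, 99.9 CPM for Mir34b and 43.8 CPM for Mir449a. The counts of Mir34a, Mir34c and Mir449a were the same in that column, so their rise came from its smaller total. That total was 6000034 against 6570375 sense counts in replicate 2, and 8262548 against 9137907 in replicate 1. Mir34c over the libraries changed sign to 0.099 by total counts and 0.010 with DESeq2 size factors. The log2 ratio of Mir34a to Mir34c was 0.15 without replicate 1 and -0.12 without replicate 2, and that of Mir34c to Mir34b was 5.40 without replicate 1 and 5.28 without replicate 2. Mir34a kept its direction and its call under all 5 alternatives, from 0.25 to 0.36, and neither Mir34b nor Mir449a passed in any of the 5. By total counts, genes higher in replicate 1 numbered 1 in the epithelial list and 1 in the kidney and liver list, against 2 each with TMM, and 3 in the p53-linked list against 4. The Mir34c and Mir34b pair ranked 9 in place of 16 without genes listed as sharing a mature sequence. No paired analysis was possible because the study has 1 group. With 2 libraries, the spread between animals is unknown, and depth limits Mir449b and Mir449c.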
